A study of Homo sapiens with 2 samples.

Results

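Pairs of MYC peaks were described here: places in the genome where exactly 2 called MYC peaks lay within 1 kb of each other and no further peak joined them. Peaks on chromosomes 1 to 22 were joined when at most 1000 bp separated the end of a peak from the start of the next, and joined regions of exactly 2 peaks were kept. This gave 2112 pairs among 14206 joined regions (14.9%, Wilson 95% interval 14.3 to 15.5), beside 11641 lone peaks and 453 regions of 3 or more peaks. The pairs held 4224 of 17321 peaks (24.4%). The members were chosen by the called positions of the peaks, so that their number and the upper bound of their spacing follow from the rule and are descriptions.

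The study profiled MYC by ChIP-seq, which sequences the DNA fragments that an antibody against a protein pulls out of sheared, crosslinked chromatin. There was 1 ChIP library and 1 input library of sheared chromatin that was not immunoprecipitated, both from the human neuroblastoma line SH-EP/TET21/N (TET21) expressing ectopic wild-type MYC. TET21 is a clone of SH-EP cells known to carry a MYCN transgene that doxycycline switches off, and both libraries came from cells kept in 1 µg/mL doxycycline for 7 days and fixed in 1% formaldehyde for 10 min. The antibody was a rabbit polyclonal made in the submitters' laboratory, used at 2 µg. The labels do not say whether it separates ectopic from endogenous MYC, and a peak list holds no expression values against which the cell line could be checked. No library has a replicate, so no value has a replicate error and no test between samples exists. The intervals given here cover counting error or the spread among pairs, and they treat pairs, peaks and fragments as independent, although sequenced fragments can be copies of the same molecule.

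MYC binds DNA as a dimer with its partner MAX, most tightly at the E-box motif, and is found mainly at active promoters and enhancers, where the DNA is open and often rich in CpG. A promoter can carry several E-boxes, and divergent genes can share a stretch of open DNA, so several sites of MYC binding can lie close together. A peak caller can report such sites as separate peaks where the coverage between them drops below its threshold. Whether the peaks of a pair are separate binding events or parts of a single broad one was not tested.

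The summits of a pair, which are the positions of highest coverage in each peak, lay most often 300 to 600 bp apart. The median spacing was 547 bp (95% interval 532 to 564), with quartiles of 402 and 767 bp and extremes of 104 and 1845 bp. Of the 2112 pairs, 1037 (49.1%) had summits from 300 to under 600 bp apart, and the fullest 100-bp class, from 400 to under 500 bp, held 381. The classes beside it held 353 (from 300 to under 400 bp) and 303 (from 500 to under 600 bp), after which the numbers thinned out without a further peak. Spacings below 200 bp were found in 9 pairs (0.426%) and spacings of 1000 bp or more in 211 (9.99%). From outer edge to outer edge a pair spanned a median of 822.5 bp.

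**Figure D1:**
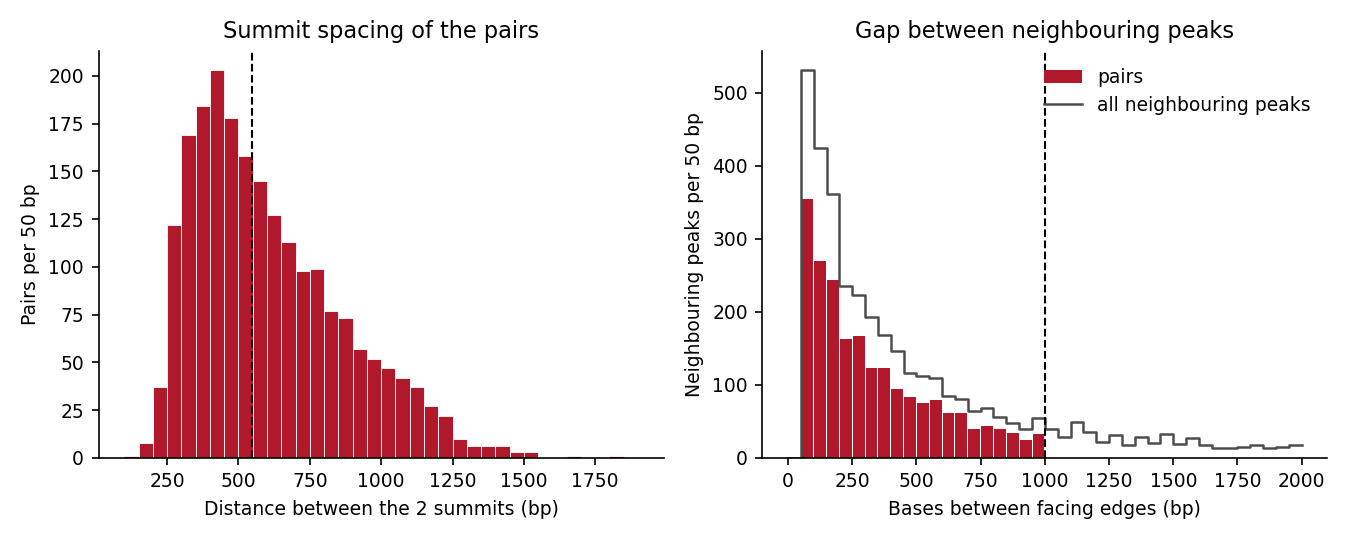
Left, number of pairs (vertical axis) by distance between the 2 summits in bp, in 50-bp classes, with the median of 547 bp dashed. Right, number of neighbouring peaks by the bases between their facing edges, in 50-bp classes, for the pairs (filled bars) and for all neighbouring peaks on chromosomes 1 to 22 (line). The dashed line marks the joining limit of 1000 bp.

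The gap between the facing edges was short. Its median was 258 bp (95% interval 241 to 271), 869 pairs (41.1%) had a gap below 200 bp, and 355 (16.8%) had one below 100 bp. No gap was smaller than 52 bp, neither in the pairs nor between any neighbouring peaks on these chromosomes. The number of neighbouring peaks fell off with distance, with 2402 at gaps of up to 500 bp, 713 at gaps over 500 and up to 1000 bp, and 304 and 170 in the next steps of 500 bp. The count went on falling across the joining limit. The 54 neighbouring peaks in the last 50 bp inside the limit had a median weaker-to-stronger ratio of pileups of 0.659 and a median summed pileup of 28.5 fragments, and the 41 in the first 50 bp outside it had 0.750 and 29 fragments.

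Spacing was set by the gap and by the widths of the peaks. The median width was 233 bp (95% interval 229 to 237) for peaks in pairs, against 222 bp (220 to 225) for lone peaks. Peaks wider than 500 bp made up 6.72% in pairs and 6.85% among lone peaks. Pairs with a peak wider than 500 bp numbered 276 of all 2112, and 59 of the 211 pairs with the longest spacings had one. Taken over all peaks in pairs, the summit leaned little towards or away from the partner. The median distance from the summit to the edge facing the partner was 116 bp (115 to 118), and that to the outer edge was 115 bp (113 to 117). Single peaks varied widely, from 1 to 1139 bp on the facing side and from 3 to 969 bp on the outer side. The longer flank was on the facing side in 51.5% of peaks (50.01 to 53.0) and on the outer side in 48.0%.

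The 3 pairs with the closest summits had pileups of 8 to 13 fragments. On chromosome 10, peaks at 127936081 to 127936298 and 127936360 to 127936511 (GRCh37, as all coordinates here) had summits 104 bp apart. Pileup means here how many ChIP fragments cover a summit, and these peaks had pileups of 12 and 11 fragments. This is the single pair with summits nearer to each other than the narrowest peak of the list is wide, 142 bp, so that a fragment of that length could count at both summits. The next closest summits were 164 bp apart on chromosome 3 (66551377 to 66551555 and 66551631 to 66551772, with 11 and 8 fragments) and 177 bp apart on chromosome 1 (165667625 to 165667795 and 165667864 to 165668011, with 13 and 11 fragments). Over all 9 pairs with spacings below 200 bp, the highest pileup was 20 fragments and the highest fold 10.23.

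The longest spacings were found beside very wide peaks or at wide gaps. On chromosome 6, a peak of 448 bp at 86351643 to 86352090 and one of 1326 bp at 86352447 to 86353772 had summits 1845 bp apart and pileups of 19 and 49 fragments. On chromosome 4, a peak of 1344 bp at 57301456 to 57302799 had 36 fragments and its neighbour at 57302986 to 57303376 had 10, at a spacing of 1690 bp. The third, on chromosome 1 at 231556839 to 231557100 and 231557962 to 231558532, had narrower peaks but a gap of 861 bp, with 11 and 16 fragments and a spacing of 1526 bp. The smallest gap, 52 bp, occurred in 6 pairs, the strongest of which lay on chromosome 1 (115300005 to 115300414 and 115300467 to 115300726, with 23 and 16 fragments). The widest gap, 994 bp, was on chromosome 2 (20423044 to 20423360 and 20424355 to 20424554, with 25 and 13 fragments).

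The peaks of a pair were seldom equally high, but most differences were within counting error. The weaker peak had a median pileup of 11 fragments (quartiles 9 and 13) and the stronger a median of 16 (quartiles 13 and 22). The median ratio of weaker to stronger was 0.692 (95% interval 0.684 to 0.714), with quartiles of 0.529 and 0.846. Equal pileups were found in 138 pairs (6.53%), a ratio of 0.8 or more in 725 (34.3%), a ratio of 0.5 or less in 477 (22.6%) and a ratio of 0.25 or less in 53 (2.51%). Measured by the authors' fold over the local background in place of the pileup, the median ratio was 0.720, and measured by −log10 p it was 0.625.

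For each pair an exact (Clopper-Pearson) 95% binomial interval was placed on the left peak's share of the summed pileup, left meaning the lower coordinate. The interval excluded 50% in 380 pairs (18.0%), which are called unequal here, and it says nothing about the spread between cultures. At the median summed pileup of 27 fragments, a split had to be as uneven as 7 and 20 fragments to be resolved. The share of unequal pairs rose with the summed pileup. It was 2.51% (31 of 1236) at summed pileups of 12 to 29 fragments and 24.2% at 30 to 39. It was 58.5% at 40 to 59 and 72.3% (60 of 83) at 60 to 102. Lone peaks matched with the next lone peak along the chromosome had 2.65%, 25.4%, 57.5% and 75.8% in the same classes. The median ratio of weaker to stronger fell over these classes. In the same order it was 0.769, 0.609, 0.482 and 0.373 in pairs and 0.750, 0.625, 0.481 and 0.388 in the lone peaks. How far counting power and how far larger differences raised the share was not tested. In most pairs the counts could not show whether the peaks differed. The stronger peak lay about equally often on either side: it was the left one in 968 of the 1974 pairs with different pileups (49.04%, Wilson interval 46.8 to 51.2) and the right one in 1006.

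The strength of one peak told little about the strength of its partner. Where the left peak had 6 to 9 fragments, the right peak had a median of 12 (95% interval 11 to 13), and where the left peak had 30 or more fragments, the right peak had a median of 14.5 (13 to 16). Over the 2112 pairs the rank correlation of left and right pileup was 0.111 (Spearman), that of the folds 0.0285 and that of the widths 0.0164. These are descriptions over pairs that share 1 library. Pileups were low, with a median of 13 fragments per peak, and only called peaks entered. The low correlations therefore do not show that the 2 sites are independent. The backgrounds under the 2 summits, which the caller estimates from the input over windows that can overlap within a pair, had a rank correlation of 0.315. They were equal within 0.0003 fragments in 251 pairs (11.9%).

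**Figure D2:**
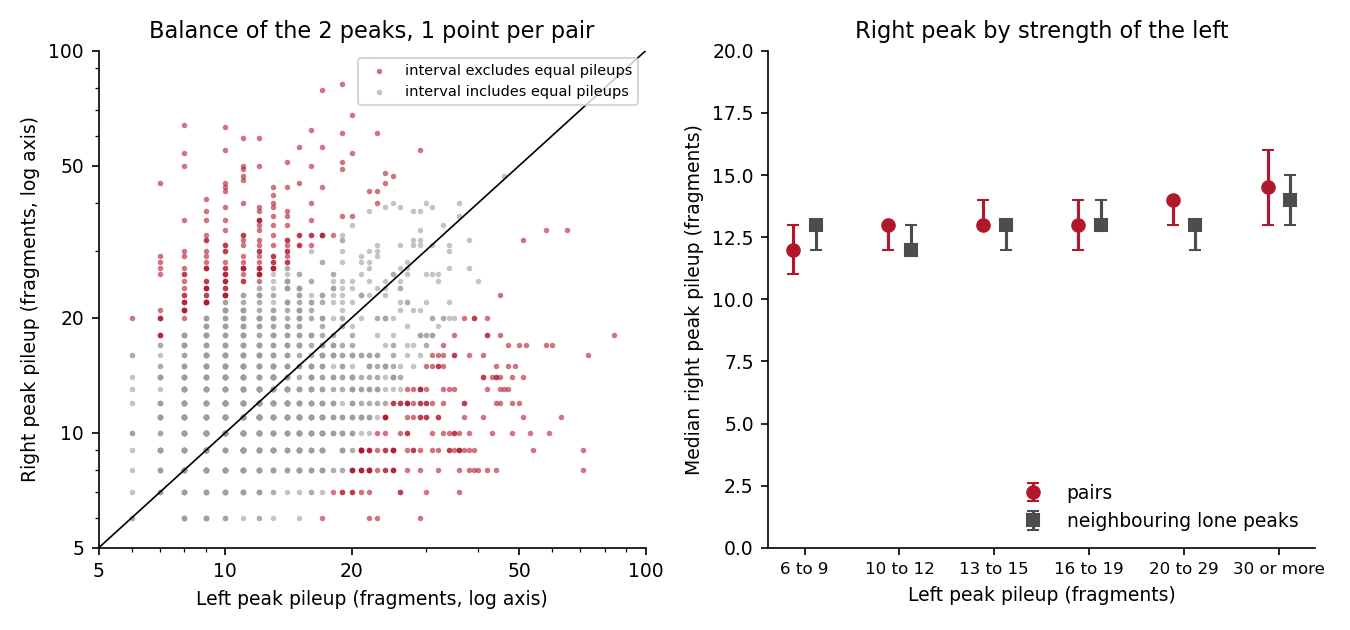
Left, pileup of the left and the right peak of each of the 2112 pairs, in fragments on log axes, with the line of equality. Red points mark the 380 pairs whose exact 95% binomial interval excludes equal pileups. Right, median pileup of the right peak (vertical axis, fragments, bars are order-statistic 95% intervals) by the pileup of the left peak, for pairs (circles) and for neighbouring lone peaks (squares). The medians lie between 12 and 14.5 fragments in every class of both sets.

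Peaks in pairs were about as uneven as neighbouring lone peaks, within the intervals below. As a comparison, lone peaks were matched with the next lone peak along their chromosome, each used at most once. Some of the 11641 lone peaks were left unmatched. The share of unequal pileups was 18.0% in pairs (95% interval 16.4 to 19.7) and 17.6% over 5239 such lone neighbours (16.6 to 18.7). Split by distance, it was 16.6% (126 of 760) for lone neighbours within 10 kb, with a median gap of 4508 bp, and 17.8% (797 of 4479) for those further apart. The median ratio was 0.692 in pairs, against 0.722 (0.700 to 0.750) for lone neighbours within 10 kb and 0.688 (0.682 to 0.696) beyond. The first 2 peaks of the 453 regions of 3 or more peaks had a median ratio of 0.692 (0.667 to 0.731) and unequal pileups in 16.8%. At matched summed pileup the values were also near each other. At 40 to 59 fragments the median ratio was 0.482 in 284 pairs and 0.481 in 671 lone neighbours. The rank correlation of pileups was 0.111 in pairs, 0.106 in lone neighbours within 10 kb and 0.0539 in those further apart. No sample-level test of these differences exists with 1 library.

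**Figure D3:**
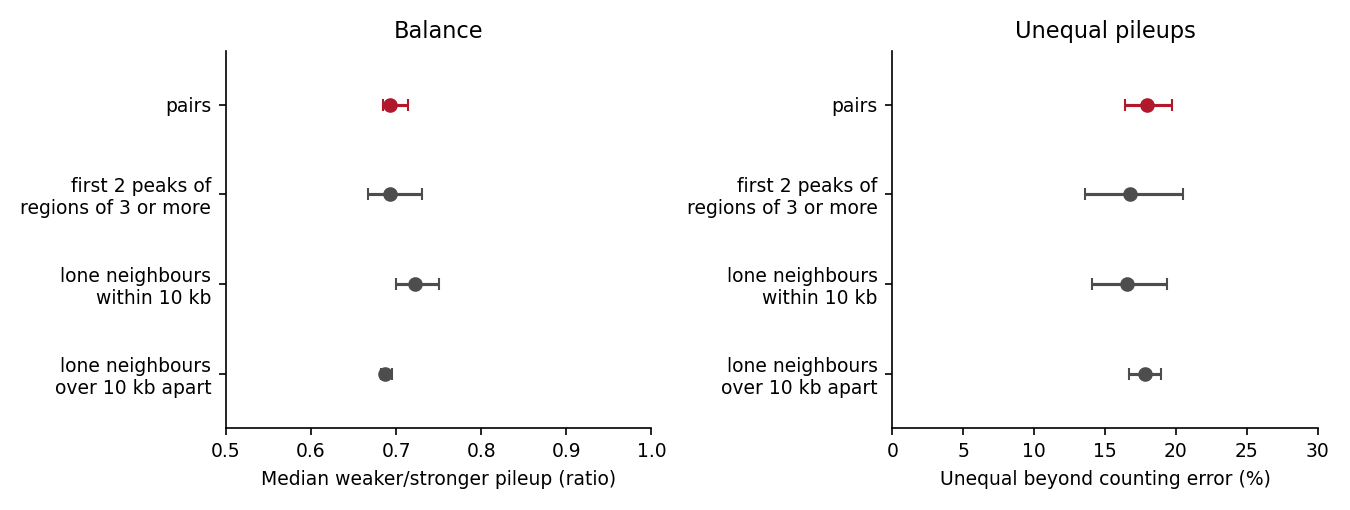
Median ratio of weaker to stronger pileup (left, order-statistic 95% intervals) and percent of pairs with unequal pileups beyond counting error (right, Wilson 95% intervals), for the pairs, the first 2 peaks of larger regions, and neighbouring lone peaks at 2 distances. The intervals of all 4 sets overlap that of the pairs in both panels.

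Balance differed little between the shortest and the widest gaps. The median ratio was 0.684 (95% interval 0.636 to 0.711) in the 355 pairs with gaps of 52 to under 100 bp and 0.667 (0.640 to 0.700) in the 335 pairs with gaps of 600 to 1000 bp. The 332 pairs with gaps from 400 to under 600 bp had the highest, 0.737 (0.706 to 0.778), an interval that does not overlap that of the widest gaps. Over all pairs the rank correlation of gap and ratio was 0.0202. With summit spacing it was -0.0901. The 168 pairs with spacings under 300 bp had a median ratio of 0.743, and the 470 with 800 bp or more had 0.667. The summed pileup and the peak width moved with spacing as well. Their medians were 23 fragments and 186.5 bp in the closest class, against 29 fragments and 257 bp in the widest, and their part in the difference was not tested.

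Where pileups differed, the weaker peak was usually the narrower as well. Its median width was 199 bp (95% interval 195 to 204), against 281 bp (275 to 290) for the stronger peak, and it was the narrower of the 2 in 1453 of 1974 pairs (73.6%). The stronger peak also had the higher fold, a value that contains the pileup, in 1686 (85.4%). It had the higher background in 1024 (51.9%) and the lower background in 718 (36.4%). These shares were not computed for lone neighbours, so they cannot be read as particular to pairs.

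High folds were about as frequent in pairs as elsewhere. Of the peaks in pairs, 675 had a fold of at least 10 (15.98%, 14.9 to 17.1), as did 15.2% of lone peaks (14.6 to 15.9) and 15.4% of all peaks on chromosomes 1 to 22. Both peaks reached it in 66 pairs (3.13%), 1 of the 2 in 543 (25.7%) and neither in 1503 (71.2%). Both reached it in 3.03% of lone neighbours within 10 kb, in 2.33% of all lone neighbours and in 3.09% of the first 2 peaks of larger regions. The right peak had such a fold in 20.7% of pairs whose left peak had it (66 of 319, interval 16.6 to 25.5) and in 16.2% of the others (290 of 1793, 14.5 to 18.0). The 66 pairs with 2 high folds lay on 21 chromosomes and had a median spacing of 632.5 bp, from 275 to 1845 bp. Among the 259 pairs whose stronger peak had 30 or more fragments, the weaker peak had a median of 14 (quartiles 11 and 19), and 205 of these pairs were unequal (79.2%, 73.8 to 83.7). Lone neighbours taken by the same limit had a median weaker pileup of 14 (quartiles 11 and 18) and were unequal in 468 of 572 (81.8%, 78.4 to 84.8). A large difference is built into this selection in both sets.

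Taken over all their peaks, pairs were about as strong as lone peaks. The median fold was 6.40 in pairs (95% interval 6.29 to 6.47) and 6.42 among lone peaks (6.39 to 6.47), a ratio of 0.996, and the median pileup was 13 fragments in both. The median fold was higher in pairs on 10 of 22 chromosomes. The share of peaks at the lowest background of the list, 0.683 fragments, was 7.81% (7.04 to 8.66) in pairs, 7.01% (5.80 to 8.43) in larger regions and 10.8% (10.3 to 11.4) among lone peaks. The intervals of pairs and lone peaks do not overlap, but the difference has no test between samples. The median background was 1.12 fragments both in pairs and among lone peaks.

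Uneven pileups were frequent at high summed pileups, in pairs and in lone neighbours alike. At 60 to 102 fragments, 72.3% of pairs and 75.8% of lone neighbours were unequal, with median ratios of 0.373 and 0.388. Choosing by the sum can itself favour pairs with 1 very high peak. This limit holds for the 8 pairs with the highest summed pileup, of which 7 were unequal. The first, on chromosome 1, had 84 fragments (Poisson 95% interval 67.0 to 104.0) at 245026165 to 245026849 and 18 (10.7 to 28.4) at 245027647 to 245028081, with folds of 13.54 and 6.86 and summits 1441 bp apart. Its left peak stood on a high background of 5.28 fragments, against 1.77 under the right peak. The second, on chromosome 5, had 19 fragments (11.4 to 29.7) at 170814467 to 170814887 and 82 (65.2 to 101.8) at 170815246 to 170815763, 741 bp apart. Its right peak had the highest fold of any peak in a pair, 48.21, while its partner had 6.71.

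In 3 of the others the difference was of the same order. On chromosome 17, peaks at 39967900 to 39968384 and 39968974 to 39969336 had 17 and 79 fragments, 895 bp apart. Also on chromosome 17, peaks at 34890681 to 34891054 and 34891111 to 34891420 had 73 and 16 fragments although their facing edges were 56 bp apart. A further pair of chromosome 17, at 49243598 to 49243830 and 49243932 to 49244565, had 20 and 68 fragments. In these 3 the weaker peak had 0.215, 0.219 and 0.294 times the fragments of the stronger.

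The remaining 3 were more even. Peaks on chromosome 1 at 8938015 to 8939075 and 8939178 to 8939530 had 65 and 34 fragments and folds of 34.24 and 19.18. On chromosome 17, peaks at 7475707 to 7476011 and 7476702 to 7477542 had 58 and 34 fragments. The pair on chromosome 7 at 2393550 to 2393846 and 2394284 to 2394620 had 46 and 47 fragments and was the single one of the 8 whose interval included equal pileups (left share 49.5%). The stronger peak was on the left in 4 of the 8.

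**Figure D4:**
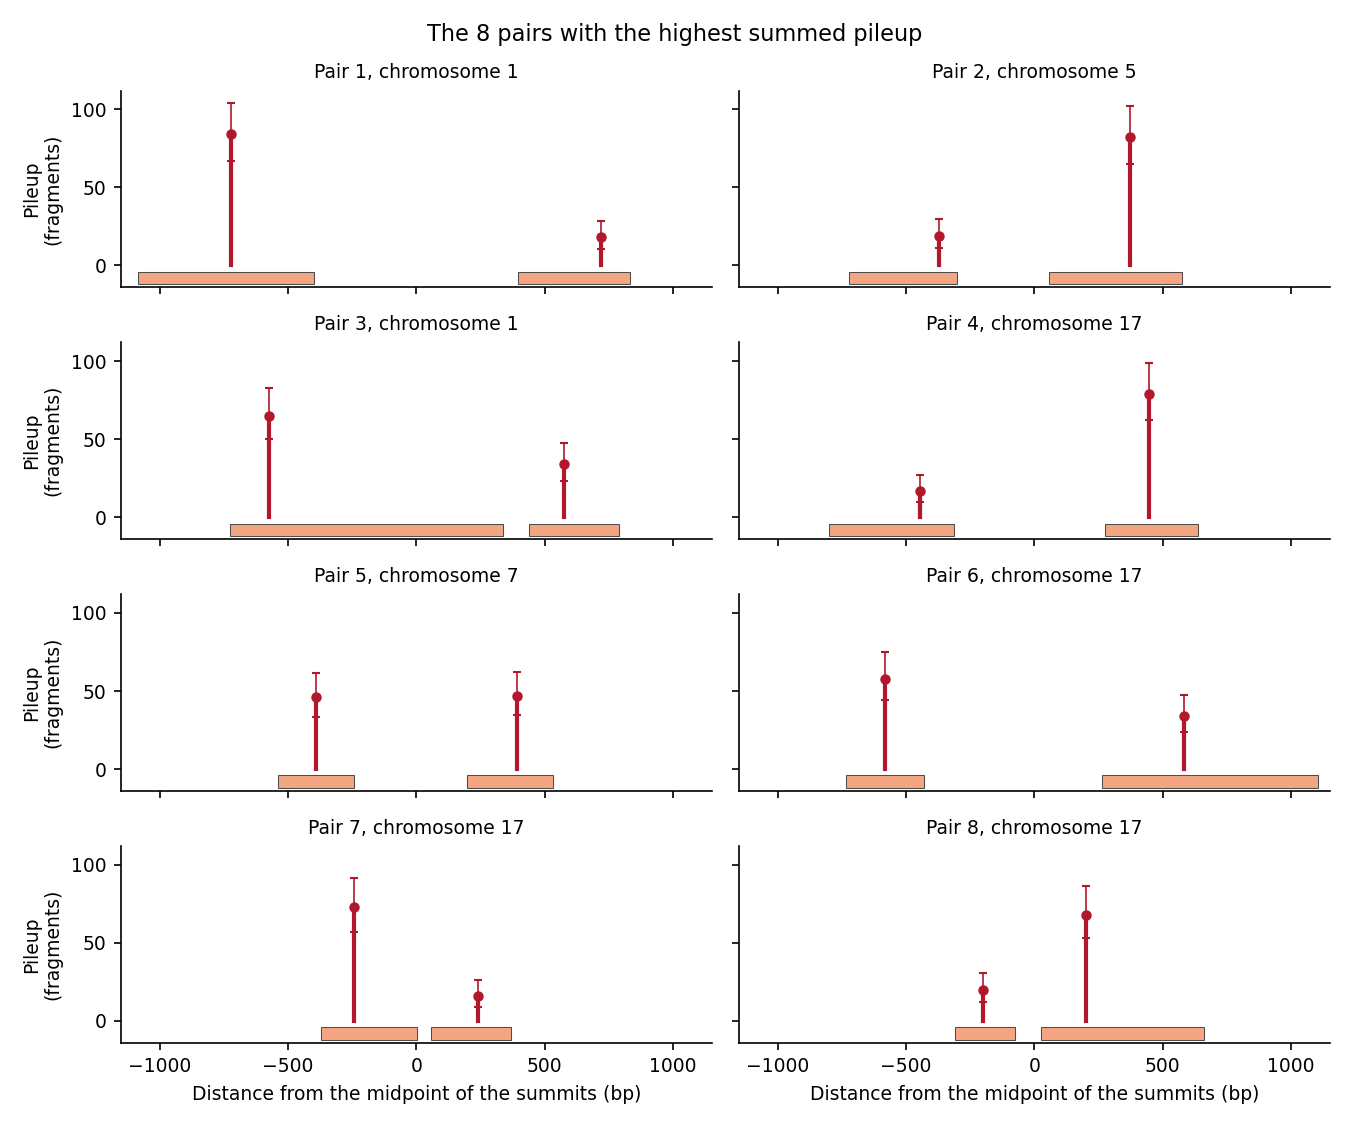
The 8 pairs with the highest summed pileup, each drawn around the midpoint of its summits (horizontal axis, bp). Boxes show the called peaks, stems the pileup at each summit in fragments, and bars the Poisson 95% interval. In 7 of the 8 the stems differ beyond counting error, and in the pair on chromosome 7 they stand at 46 and 47 fragments.

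The most uneven pairs with a strong peak joined a site of 54 to 71 fragments to one of 8 or 9. On chromosome 20, 71 fragments at 17949120 to 17949759 stood beside 8 at 17950584 to 17950760, a ratio of weaker to stronger of 0.113, the lowest of any pair. On chromosome 2, 8 fragments at 216176124 to 216176265 stood beside 64 at 216176542 to 216176983, and 71 at 70313834 to 70314305 stood beside 9 at 70314742 to 70314959. On chromosome 17, 8 fragments at 33468821 to 33468962 stood beside 54 at 33469116 to 33469446. The weaker peaks of these 4 pairs had folds of 4.86 to 5.35, and 2 of them had the minimal width of 142 bp.

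Pairs of 2 strong peaks were few, but strong peaks were uncommon in both sets. At least 30 fragments covered the summit in 6.44% of peaks in pairs and in 5.81% of lone peaks. Lone neighbours were not counted by this limit at both peaks. The scarcity therefore cannot be read as particular to pairs. Both pileups reached 30 fragments in 13 pairs (0.616%, 0.360 to 1.05) on 8 chromosomes, with spacings of 364 to 1165 bp, and 3 of these were unequal. Beside the pair of chromosome 7 described above, the most even were on chromosome 12 (64797937 to 64798569 and 64798700 to 64799020, with 31 and 31 fragments, 770 bp apart), on chromosome 4 (119199639 to 119199909 and 119199981 to 119200307, with 36 and 37, 364 bp apart) and on chromosome 1 (235291668 to 235291974 and 235292048 to 235292456, with 33 and 35, 491 bp apart). Equal pileups did not mean equal folds. In the pair of chromosome 4, the left peak had a fold of 12.42 at a background of 1.98 fragments and the right peak a fold of 8.84 at 3.30.

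Pairs were spread over all 22 chromosomes, from 25 on chromosome 21 to 227 on chromosome 1. Their number ranked with the number of protein-coding genes (Spearman 0.955 over 22 chromosomes, a description). Joined regions of any kind were also fewest on chromosome 21 (163) and most numerous on chromosome 1 (1514). Their ranking with genes was not computed, so the ranking of pairs cannot be read as particular to pairs. The share of pairs among the joined regions varied little. It was highest on gene-dense chromosome 19, at 17.6% (146 of 831, Wilson 95% interval 15.1 to 20.3), and lowest on chromosome 15, at 11.7% (54 of 463, 9.05 to 14.9). The interval included the overall 14.9% on 21 chromosomes and lay above it on chromosome 19. Its rank correlation with the density of peaks per Mb was 0.0740. Median spacing ran from 489.5 bp on chromosome 14 to 615 bp on chromosome 18, and on all 22 chromosomes its interval included 547 bp.

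**Figure D5:**
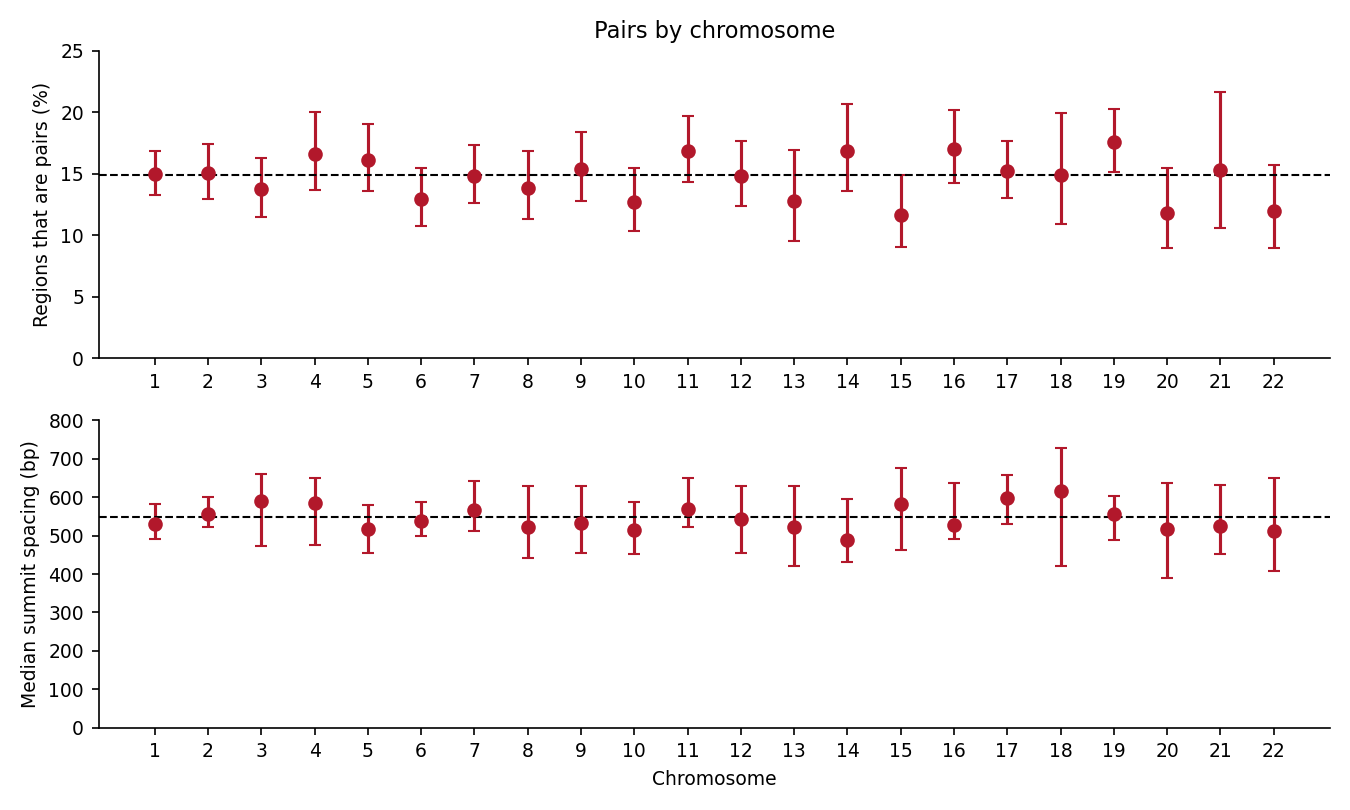
Top, percent of joined regions that are pairs on each chromosome, with Wilson 95% intervals and the overall 14.9% dashed. Bottom, median summit spacing of the pairs in bp with order-statistic 95% intervals and the overall 547 bp dashed. Chromosome 19 lies above the dashed line in the top panel, and every interval in the bottom panel crosses it.

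Unequal pairs were commonest on chromosome 17, at 28.9% (41 of 142, 22.1 to 36.8), against 18.0% over all pairs. Chromosome 19 had 22.6% and chromosome 7 had 22.05%, while chromosome 15 had 9.26% (5 of 54) and chromosome 22 had 9.30% (4 of 43). The summed pileup differed too. Its median was 32 fragments on chromosome 17, 28 on chromosome 19 and 34 on chromosome 7, against 24 on chromosome 15 and 25 on chromosome 22. Over the 22 chromosomes the share of unequal pairs and the median summed pileup had a rank correlation of 0.782, a description. The order was not the same throughout, since chromosome 10 had 21.7% at 26 fragments and chromosome 1 had 18.9% at 30. The median background differed as well. It was 1.32 fragments on chromosomes 1, 7 and 17. On chromosome 19 it was 0.956, on chromosomes 10 and 15 it was 0.937 and on chromosome 22 it was 1.22. The part of the summed pileup and of the background in the difference was not tested. The median ratio of weaker to stronger was 0.673 on chromosome 17, and on all 22 chromosomes its interval included the overall 0.692.

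Pairs stood about as far from other MYC regions as lone peaks did. The nearest other region was a median of 29344 bp away (95% interval 26830 to 31726) from pairs and 29474 bp (28411 to 30770) from lone peaks. It was within 10 kb of 25.3% of pairs and of 25.8% of lone peaks. For regions of 3 or more peaks the median was 21809 bp (17724 to 25155).

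A stricter threshold removed peaks in pairs about as often as lone peaks, and many pairs lost 1 or both of their peaks. The lowest −log10 q of the list was 1.31. A value of 5 or more was reached by 68.8% of peaks in pairs (67.4 to 70.2), against 70.4% of lone peaks (69.6 to 71.2). At this threshold 1008 pairs (47.7%) kept both peaks, 891 (42.2%) kept 1 and 213 (10.1%) kept neither. At or above the list's median −log10 p of 10.3, the numbers were 534, 1051 and 527. The same split was not computed for lone neighbours, so it cannot be read as particular to pairs.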

How the data were processed

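The file used is the authors' deposited peak list of the ChIP library (17659 peaks, narrowPeak layout). Per the submitters' processing notes, the build was GRCh37 and the tools were MACS2 2.1.0, Picard 2.7.1, SAMtools 1.3, STAR 2.5.2a and bedtools, in no stated role. The filter on the list is not given in the sources used here. The deposited score is the −log10 q times 10, cut to a whole number. The deposited fold is a ratio of ChIP over the caller's local background, and the deposited −log10 p and q values come from the peak caller.

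From the fold, read as (pileup + 1) / (background + 1), and the Poisson −log10 p, the whole pileup between 3 and 699 that fitted both was taken for each peak. All 17659 peaks matched within 0.001. The recovery and the joining were tested on simulated data. Depth is otherwise unknown. Positions are 1-based. Medians have order-statistic, shares Wilson and pileups exact Poisson 95% intervals (Python 3.11.15, scipy 1.17.1, pandas 2.3.3, numpy 2.4.6, matplotlib 3.10.9).

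Pairs were named by rule: the 8 with the highest summed pileup, the 4 most uneven with a stronger pileup of at least 30, the 4 most even with both at least 30, the 3 closest and 3 widest summit spacings, and the extreme gaps. Members, rule and comparisons were chosen with earlier results of these data known. No GRCh37 sequence or annotation was used here, so start sites, genes and motifs were not analysed. The 338 peaks outside chromosomes 1 to 22, among them 37 pairs on chromosome X, were left out. Protein-coding genes per chromosome came from RefSeq (GRCh38.p14). Alternatives changed the joining limit, the peaks kept, the measure of strength and the pairs included.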

Additional observations from a re-analysis of the deposited data

How the results depend on the processing

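Of 50 alternative values over 7 results, 33 stayed within the 95% interval of the reported value or within 1.5 times the count, 17 moved and none reversed. A reversal could be recorded only for the rank correlation, as a change of sign. It could not be recorded for the fold ratio, whose interval of 0.979 to 1.006 included 1, and was not defined for the other results. The absence of reversals therefore says little. The joining limit of 500 and 2000 bp moved the median spacing to 470 and 596.5 bp. Keeping peaks with a −log10 q of at least 5 and joining them again gave 1185 pairs with a spacing of 581 bp, a ratio of weaker to stronger of 0.733 and a rank correlation of 0.170. Peaks whose −log10 p reached the list's median formed 679 pairs, with a spacing of 610 bp, a ratio of 0.739 and a fold of 1.03 times that of lone peaks. Fewer peaks give fewer pairs by construction; the cause of the other shifts was not tested. Pairs with facing edges at least 200 bp apart had a spacing of 700 bp, which that choice sets. By fold in place of pileup the ratio was 0.720 and the correlation 0.0285, and by −log10 p the ratio was 0.625. Leaving out pairs with a peak wider than 500 bp, chosen after seeing the data, gave a spacing of 522 bp, unequal pileups in 15.5% and a fold of 0.964 times that of lone peaks. Lone peaks wider than 500 bp were kept, so this fold ratio compares sets that were not filtered alike. Without chromosomes 1, 7 and 17, which left 1616 pairs, none of the 6 results other than the number of pairs moved. Each of these chromosomes had a median background of 1.32 fragments. The share of pairs with the stronger peak on the left stayed within its interval under all its alternatives. Of 10 results planned, 3 (start sites near pairs, start sites between summits, E-boxes) and their alternatives were not run, since no GRCh37 annotation or sequence was used. No paired analysis was possible because each kind of library has 1 sample and the results come from no test between them. No peak with a pileup under 5 was listed, which limits what the depth can show about weaker partners.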
